A study of Rattus norvegicus with 18 samples.

Results

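Vimentin (Vim), nestin (Nes), the calcium-binding proteins S100b and S100a1, apolipoprotein E (Apoe) and connexin 43 (Gja1) were followed across all 18 arrays of a study of rat cortical type-I astrocytes. These 6 genes were taken as every probe set, a group of oligonucleotides that reports 1 transcript, whose symbol in the platform annotation was one of the 6 names. That gave 10 probe sets of the 1322 in the deposited table, and all 10 were among the 1027 tested. Vim and Gja1 had 1 probe set each, and Nes, S100b, S100a1 and Apoe had 2 each. Immobilized beta-amyloid 25-35, a short neurotoxic piece of the Alzheimer peptide, was the substrate of the exposed cells, and 3 arrays each were made at 12 hours, 1 day, 3 days and 5 days. The 6 control arrays came from cells on laminin and nitrocellulose that had not met the peptide, with no time in culture given. The source field of controls 1 and 2 reads cerebral cortex, and that of the other 16 arrays names cortical type-I astrocytes. The labels do not say whether arrays of a group came from separate cultures or animals, so p-values measure the spread between these arrays, which may be technical.

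Vimentin and nestin are intermediate filament proteins: vimentin is the filament of immature and reactive astrocytes, and nestin is that of neural progenitors and of astrocytes that re-enter an immature state. S100B is made mainly by astrocytes and is also released by them, S100A1 is its close relative, apolipoprotein E is the main lipid carrier that astrocytes secrete and binds beta-amyloid, and connexin 43 forms the gap junctions that couple astrocytes to each other. Gfap, the intermediate filament protein most often used to mark astrocytes, was not analysed here. In arrays of whole cultures, fewer cells of a type and less RNA per cell cannot be told apart.

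The genes lie apart in the rat genome. In the GRCr8 assembly Vim is on chromosome 17 from 81577261 to 81585746, Nes on chromosome 2 from 175735715 to 175745631, S100a1 on chromosome 2 from 178291503 to 178296346, S100b on chromosome 20 from 12372345 to 12381159, Gja1 on chromosome 20 from 36302490 to 36315010, and Apoe on chromosome 1 from 88481889 to 88485816. The build behind the probe sets is not given in the sources used here. The 100 bases before the annotated start are shown for Vim, S100b, Apoe and Gja1, 5′ to 3′ on the strand of the gene. They come from the RefSeq promoter sequences of GRCr8, where S100a1 had no entry and that of Nes did not cover these bases. The windows are chr17:81577161-81577260 on the plus strand, chr20:12381160-12381259 on the minus strand, chr1:88485817-88485916 on the minus strand and chr20:36302390-36302489 on the plus strand. Capitals mark a match, on either strand, to a TATA box (TATAAA) or a CCAAT box, and a GC box (GGGCGG) and the AP-1 motif (TGANTCA) were searched as well.
Vim: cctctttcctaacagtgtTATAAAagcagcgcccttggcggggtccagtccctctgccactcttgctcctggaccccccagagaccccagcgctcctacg
S100b: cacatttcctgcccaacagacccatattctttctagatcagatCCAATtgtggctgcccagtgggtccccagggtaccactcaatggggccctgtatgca
Apoe: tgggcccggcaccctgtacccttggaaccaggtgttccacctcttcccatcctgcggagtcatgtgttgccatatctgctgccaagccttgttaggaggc
Gja1: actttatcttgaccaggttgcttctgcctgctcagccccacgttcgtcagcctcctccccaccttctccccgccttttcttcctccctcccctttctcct
Vim held a TATA match 82 to 77 bases before its start, a motif found in 6.22% of 22639 such windows of rat genes. S100b held a CCAAT match 57 to 53 bases before its start, against 17.8% of windows. The GC box stood in 20.5% of windows and the AP-1 motif in 2.46%, and the 4 windows shown held neither. A match describes the letters and is no evidence of a bound factor.

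The deposited signals had been brought to one scale, with a mean of 502.067 to 502.632 on every array after the lowest and highest 2% of values were left out. The arrays did not group by their labels. Clustered on the tested probe sets other than the 10 of interest, they formed 5 sets: the 12 hours arrays with control 1; 1 day arrays 1 and 2; 1 day array 3 with 3 days array 3 and control 2; 3 days arrays 1 and 2 with control 3; and the 5 days arrays with controls 4 to 6. Arrays of different groups in the same set had a median Pearson correlation of 0.95 (17 pairs), and arrays of the same group in different sets had 0.82 (16 pairs). No label names a batch that matches these sets. The main folds of Nes, S100b, Apoe and Gja1 are given with and without 1 day array 3, 3 days array 3 and control 2, which share a set, called the mixed set. Cut into 2 sets instead of 5, the arrays fell into 7 (those of 12 hours, control 1 and the mixed set) and the other 11, and folds are also given with either division as a block in the fit, that is with a term for each set.

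Vimentin had the steadiest signal of the 10 probe sets. Its probe set X62952_at had 17281.0, 17463.4 and 16029.5 at 12 hours, 11977.8, 14497.8 and 16603.7 at 1 day, 12554.5, 14402.3 and 15247.7 at 3 days, and 18831.2, 14018.1 and 14886.8 at 5 days, against a lowest, median and highest control of 8770.4, 15054.6 and 18647.7. Every time overlapped the controls, and the highest array was 2.15 times the lowest. By mean signal the order was 12 hours, 5 days, control, 1 day and 3 days, and neighbours in this order overlapped. The log2 fold changes against control were 0.25, 0.00, -0.02 and 0.15 at 12 hours, 1 day, 3 days and 5 days (SE 0.21 each), and the smallest limma adjusted p over all alternatives tried for these 4 comparisons was 0.204.

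Nestin was high on 1 day arrays 1 and 2 and low on the 3 arrays of the mixed set. Probe set M34384_at had 4082.2, 3946.4 and 3871.3 at 12 hours, 7893.1, 7778.2 and 1665.0 at 1 day, 5967.9, 5722.3 and 721.8 at 3 days, and 4714.1, 5439.3 and 5371.2 at 5 days, against a lowest, median and highest control of 856.3, 4234.7 and 5028.0. Array 3 of 1 day, array 3 of 3 days and control 2, at 1665.0, 721.8 and 856.3, lay below the other 15 arrays, which began at 3871.3. The second probe set, rc_AI030685_s_at, had 81.6, 123.2 and 100.7 at 12 hours, 228.7, 156.9 and 57.4 at 1 day, 106.5, 150.9 and 23.7 at 3 days, and 64.7, 95.5 and 89.9 at 5 days, against a lowest, median and highest control of 50.6, 78.3 and 97. It too was lowest on the same 3 arrays and highest on 1 day arrays 1 and 2. By mean signal M34384_at ran from 1 day through 5 days, 3 days and 12 hours to control, and neighbours in this order overlapped.

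Neither nestin probe set passed the test in the fit of all 18 arrays. At 1 day against control the log2 fold changes were 0.46 ± 0.69 for M34384_at and 0.77 ± 0.50 for rc_AI030685_s_at (SE, 3 and 6 arrays). Without the 3 arrays of the mixed set they were 0.81 ± 0.16 with a limma adjusted p of 0.0184 and 1.24 ± 0.27 with an adjusted p of 0.0252, on 2 and 5 arrays. In that fit 4.97% of all tested probe sets passed at 1 day against control. Both 1 day arrays were above all 5 controls on both Nes probe sets there, a separation not counted over all tested probe sets. M34384_at was also higher at 1 day than at 12 hours there, with a log2 fold change of 0.98 ± 0.18 (limma adjusted p = 0.00828). These 2 remaining 1 day arrays form an array set of their own that holds no control, so the time and the set cannot be told apart. At 3 days both Nes probe sets were lower than at 1 day in all 3 pairs of same-numbered arrays, though no label pairs them. The log2 fold changes were -0.68 ± 0.26 and -0.81 ± 0.32, which did not pass with the replicate number as a block (SE, limma adjusted p = 0.429 and 0.439).

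**Figure D1:**
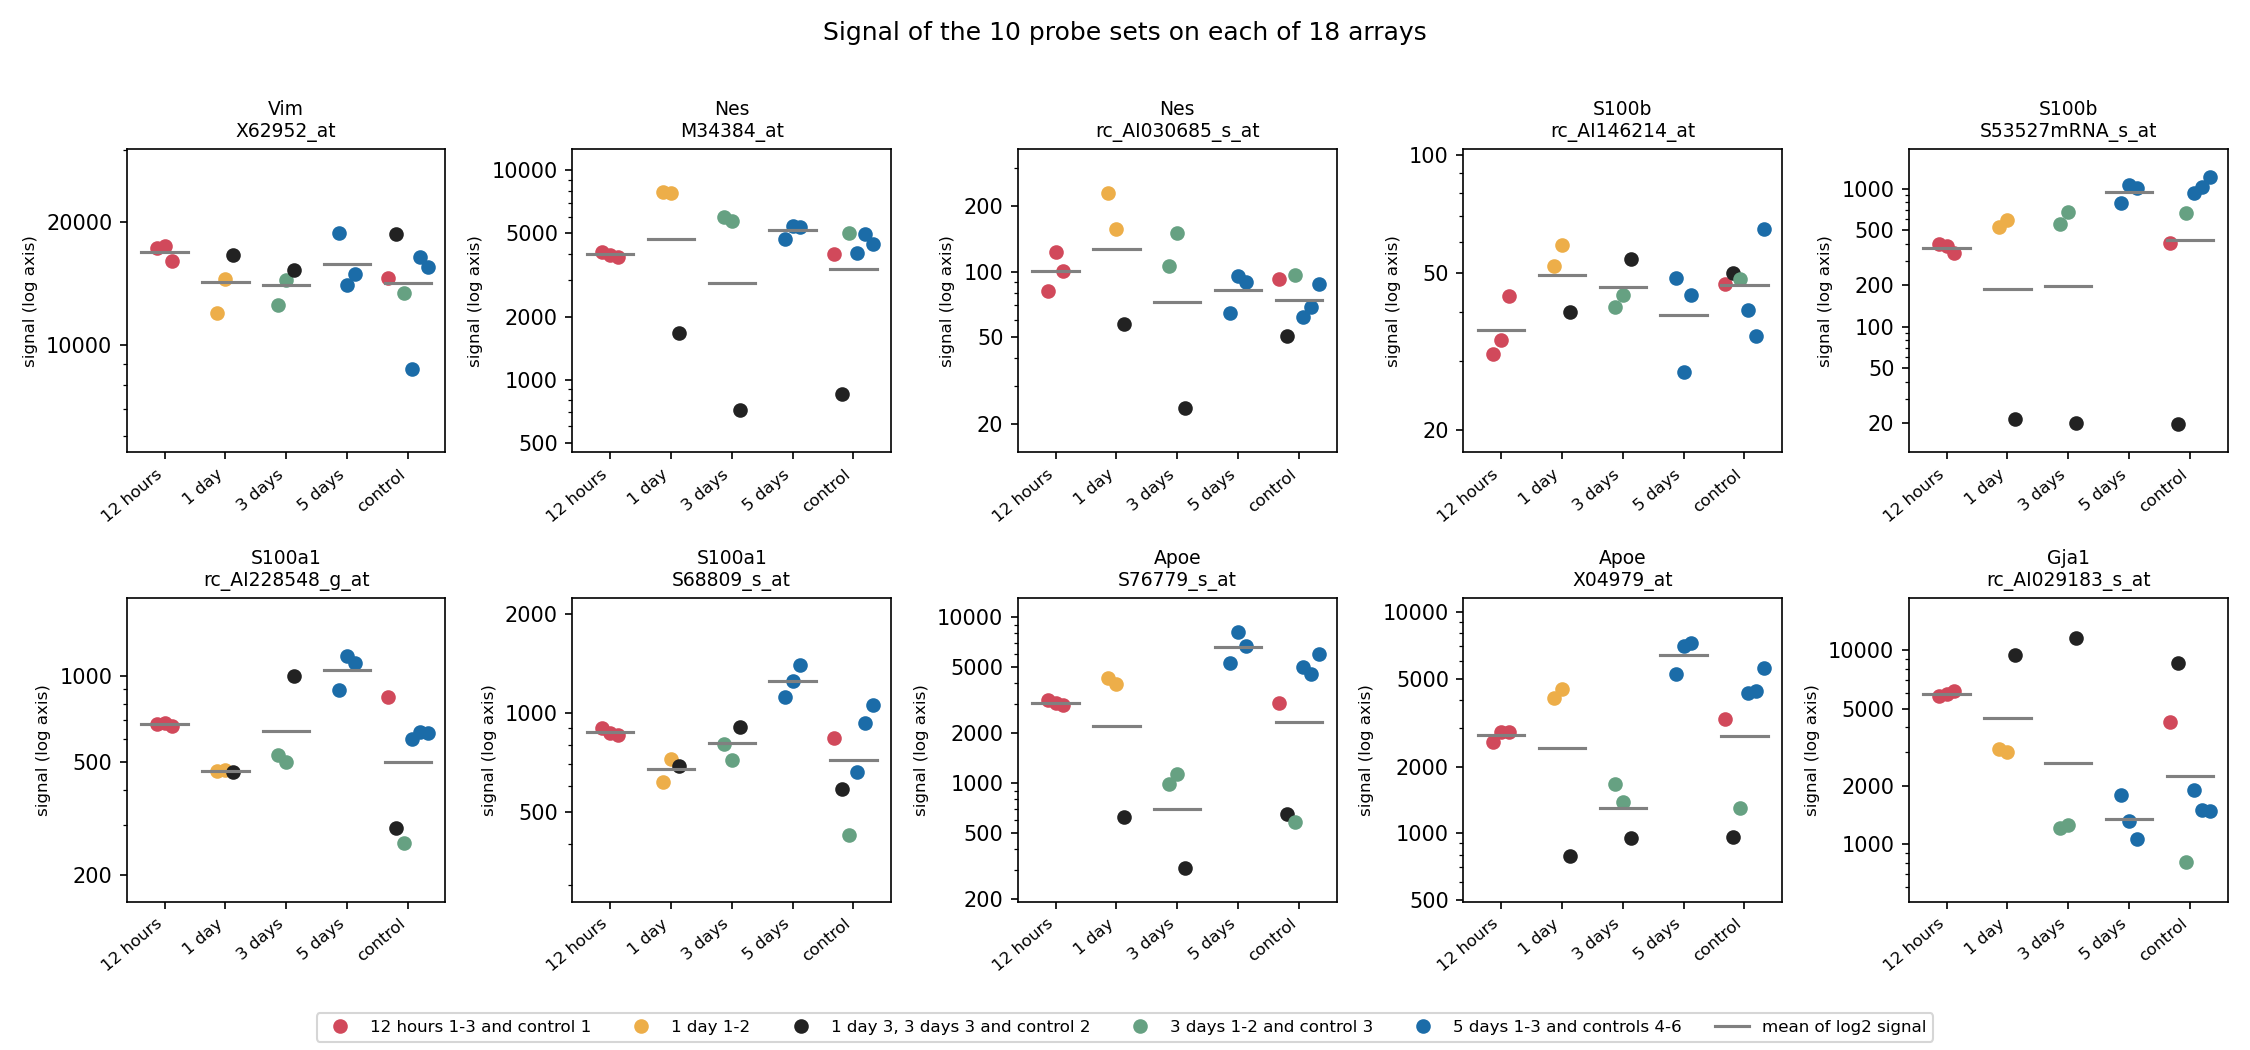
Signal of each of the 10 probe sets on the 18 arrays, on a log axis, by group, with the grey line at the mean of log2 signal and colours for the 5 array sets. The 3 arrays drawn in black (1 day 3, 3 days 3 and control 2) lie at 19.7 to 21.6 for S100b S53527mRNA_s_at and at 8604.3 to 11591.7 for Gja1, outside the other 15 arrays, while Vim spans 8770.4 to 18831.2 with no such gap.

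S100b had the widest range of the 10 probe sets. On S53527mRNA_s_at it had 393.7, 384.0 and 344.4 at 12 hours, 528.6, 588.3 and 21.6 at 1 day, 555.2, 681.0 and 20 at 3 days, and 783.4, 1056.7 and 1002.4 at 5 days, against a lowest, median and highest control of 19.7, 796.05 and 1209.0. The 3 arrays of the mixed set were at 19.7 to 21.6, and no other array was under 344.4. By mean signal the order was 5 days, control, 3 days, 1 day and 12 hours, with overlap between neighbours. The highest array was 61.4 times the lowest, and the SD of its log2 signal over the 18 arrays was above that of 97.7% of tested probe sets.

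The other S100b probe set, rc_AI146214_at, did not follow it. It had 31.2, 33.9 and 43.8 at 12 hours, 52.1, 58.9 and 39.8 at 1 day, 41.2, 44.1 and 54.5 at 3 days, and 48.6, 28.1 and 44.0 at 5 days, against a lowest, median and highest control of 34.6, 47.8 and 64.7. These values lie close to the filter on low signals of 44.9, and every time overlapped the controls. Its Pearson correlation with S53527mRNA_s_at over the 18 arrays was -0.15, so the drop on the 3 arrays was seen by 1 of 2 S100b probe sets.

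In the fit of all arrays S100b S53527mRNA_s_at had log2 fold changes against control of -0.19, -1.18, -1.12 and 1.14 at 12 hours, 1 day, 3 days and 5 days (SE 1.36 each), and none passed. Single arrays of the mixed set decided these values: the 5 days value was 0.25 without control 2, the 1 day value was 0.39 without 1 day array 3, and the 3 days value was 0.53 without 3 days array 3. Without all 3 the values were -1.08, -0.50, -0.36 and 0.25 at 12 hours, 1 day, 3 days and 5 days. That at 12 hours passed in that fit (SE 0.30, limma adjusted p = 0.0318, 3 against 5 arrays), and so did a difference of 1.33 ± 0.34 for 5 days over 12 hours (limma adjusted p = 0.0136).

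Both signs turned with 2 array sets as a block. That division puts the mixed set, at 19.7 to 21.6, in 1 set with the 12 hours arrays and control 1, at 344.4 to 401.2. The 12 hours arrays are then set against control 2 as well as control 1, so the turned signs depend on the low arrays of the mixed set. With 2 sets the S100b difference was 2.54 ± 0.73 for 12 hours against control (limma adjusted p = 0.126) and -2.77 ± 0.91 for 5 days against 12 hours (limma adjusted p = 0.186). With 5 sets the 2 values were -0.10 and -0.06, and both rest on control 1, the only control in the set of the 12 hours arrays. Inside the set that the 5 days arrays share with controls 4 to 6 the difference at 5 days was -0.16 ± 0.20 (SE, 3 against 3 arrays), which did not pass. The -0.10 with 5 sets is the log2 difference of the 12 hours arrays from control 1 alone, a single array that gives no spread of its own. Control 1, in the set of the 12 hours arrays, had 401.2, and controls 4 to 6, in the set of the 5 days arrays, had 930.3, 1029.8 and 1209.0.

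S100a1 was higher on each 5 days array than on any control, on both of its probe sets. On S68809_s_at it had 901.7, 873.2 and 857.1 at 12 hours, 618.0, 725.0 and 689.1 at 1 day, 807.3, 722.6 and 909.0 at 3 days, and 1121.0, 1251.7 and 1400.3 at 5 days, against a lowest, median and highest control of 427.5, 752.6 and 1059.1. The log2 fold change at 5 days against control was 0.80 ± 0.24 (SE), 1.74-fold, with a limma adjusted p of 0.412. On rc_AI228548_g_at it had 681.2, 682.7 and 671.0 at 12 hours, 466.8, 470.5 and 459.4 at 1 day, 527.9, 500.2 and 1001.4 at 3 days, and 893.1, 1172.5 and 1114.9 at 5 days, against a lowest, median and highest control of 259.2, 618.65 and 847.4. The log2 fold change at 5 days was 1.07 ± 0.34, 2.11-fold, with the same adjusted p of 0.412. Neither change passed the threshold, although the 5 days arrays did not overlap the controls, which was true of 5.36% of all tested probe sets.

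The S100a1 difference at 5 days kept its sign inside the array set that holds the 5 days arrays and controls 4 to 6, at 0.52 ± 0.23 for S68809_s_at and 0.75 ± 0.18 for rc_AI228548_g_at (SE, 3 against 3 arrays). The limma adjusted p-values there were 0.702 and 0.659. By mean signal both probe sets ran from 5 days through 12 hours, 3 days and control to 1 day. The 5 days arrays did not overlap the 12 hours arrays, as was true of 53.7% of all tested probe sets. All later neighbours in this order overlapped. At 1 day the rc_AI228548_g_at signal was 459.4 to 470.5 on arrays of 2 different sets, and at 3 days the mixed-set array had 1001.4 against 500.2 and 527.9 on the other two. The 5 array sets took 50.9% of the sum of squares of log2 signal for S68809_s_at and 45.1% for rc_AI228548_g_at, against 99.5% for S100b S53527mRNA_s_at and 74.6% over all tested probe sets.

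Apoe was highest at 5 days and lowest at 3 days on both probe sets. On X04979_at it had 2594.8, 2869.0 and 2873.5 at 12 hours, 4094.6, 4506.8 and 784.6 at 1 day, 1675.2, 1380.1 and 951.6 at 3 days, and 5256.4, 6985.8 and 7215.0 at 5 days, against a lowest, median and highest control of 956.1, 3801.85 and 5594.4. On S76779_s_at it had 3149.8, 3049.8 and 2962.6 at 12 hours, 4313.5, 3943.8 and 622.4 at 1 day, 985.5, 1125.7 and 308.1 at 3 days, and 5296.7, 8126.8 and 6709.7 at 5 days, against a lowest, median and highest control of 583.4, 3786.45 and 5972.9. The low controls were control 2, in the mixed set, with 956.1 and 652.2 on the 2 probe sets, and control 3, which shares a set with 3 days arrays 1 and 2, with 1301.8 and 583.4. By mean signal X04979_at ran from 5 days through control, 1 day and 12 hours to 3 days. Only the last pair of neighbours did not overlap, a separation not counted over all tested probe sets. S76779_s_at had the same ends, with 12 hours above 1 day, and all of its neighbours overlapped.

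Against control the Apoe log2 fold changes at 3 days were -1.08 ± 0.58 on X04979_at and -1.73 ± 0.79 on S76779_s_at, and at 5 days 1.22 ± 0.58 and 1.51 ± 0.79 (SE), and none passed. Without the 3 arrays of the mixed set these 4 values were -1.16, -1.51, 0.92 and 1.14, and none passed. At 5 days against 3 days they were 2.30 ± 0.67 and 3.24 ± 0.91, with limma adjusted p-values of 0.158 and 0.146, and the 5 days arrays did not overlap the 3 days arrays on either probe set, as was true of 24% of all tested probe sets. Without the 3 arrays of the mixed set the 5 days over 3 days values were 2.08 ± 0.46 and 2.65 ± 0.73 (SE), and neither passed. With the 5 sets as a block they were 0.32 ± 0.25 and 0.34 ± 0.46, with limma adjusted p-values of 0.912 and 0.975, and those at 3 days against control were 0.13 ± 0.19 and 0.02 ± 0.34 (SE), of the opposite sign to the values without a block. Inside the set of the 5 days arrays and controls 4 to 6 the differences at 5 days were 0.44 ± 0.21 and 0.36 ± 0.22 (SE), with limma adjusted p-values of 0.702 and 0.756. For 5 days over 12 hours, X04979_at passed without the 3 arrays of the mixed set, at 1.21 ± 0.41 (limma adjusted p = 0.0467), and S76779_s_at did not, at 1.11 ± 0.65 (limma adjusted p = 0.228). With 2 sets as a block, where the mixed set and the 12 hours arrays fall in the same set, these values were -0.05 ± 0.66 and -0.56 ± 0.91 (SE), and neither passed.

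Gja1 ran the other way from Apoe between the first and last time. Probe set rc_AI029183_s_at had 5812.0, 5976.5 and 6132.7 at 12 hours, 3116.5, 3004.2 and 9508.6 at 1 day, 1218.9, 1264.1 and 11591.7 at 3 days, and 1799.0, 1313.2 and 1058.6 at 5 days, against a lowest, median and highest control of 810.6, 1698.8 and 8604.3. The 3 highest arrays were those of the mixed set, and the next were the 12 hours arrays and control 1, which had 4269.5. By mean signal the order was 12 hours, 1 day, 3 days, control and 5 days, and neighbours overlapped. The log2 fold changes against control were 1.41, 1.00, 0.22 and -0.72 at 12 hours, 1 day, 3 days and 5 days (SE 0.74 each), and none passed. Without the 3 arrays of the mixed set the values at 1 day, 3 days and 5 days were 0.84, -0.46 and -0.33, and none of these passed.

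At 5 days against 12 hours Gja1 had a log2 fold change of -2.14 ± 0.86 (SE), with a limma adjusted p of 0.0959, the smallest of the 10 probe sets in any comparison between groups in the fit of all arrays. Without the 3 arrays of the mixed set the same fold had an SE of 0.44 and passed, with an adjusted p of 0.00687, and at 12 hours Gja1 was higher than in controls by 1.80 ± 0.39 (limma adjusted p = 0.0231). With controls 3 to 6 alone the 12 hours difference was 2.13 ± 0.66 (limma adjusted p = 0.0278). Neither difference passed with 2 array sets as a block, where the mixed set and the 12 hours arrays fall in the same set. The log2 fold change was then 0.15 ± 0.45 at 5 days against 12 hours (limma adjusted p = 0.896). At 12 hours against control it was -0.11 ± 0.36 (limma adjusted p = 0.867). With 5 sets the same 2 comparisons gave -0.74 and 0.48, and both rest on control 1 as the only control in the 12 hours set. Within the 7 arrays of the smaller division the 12 hours arrays differed from controls 1 and 2 by -0.02 ± 0.33 (SE). The 0.48 with 5 sets is the log2 difference of the 12 hours arrays from control 1 alone, and all 3 of them were above it. With a single control that difference has no test.

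**Figure D2:**
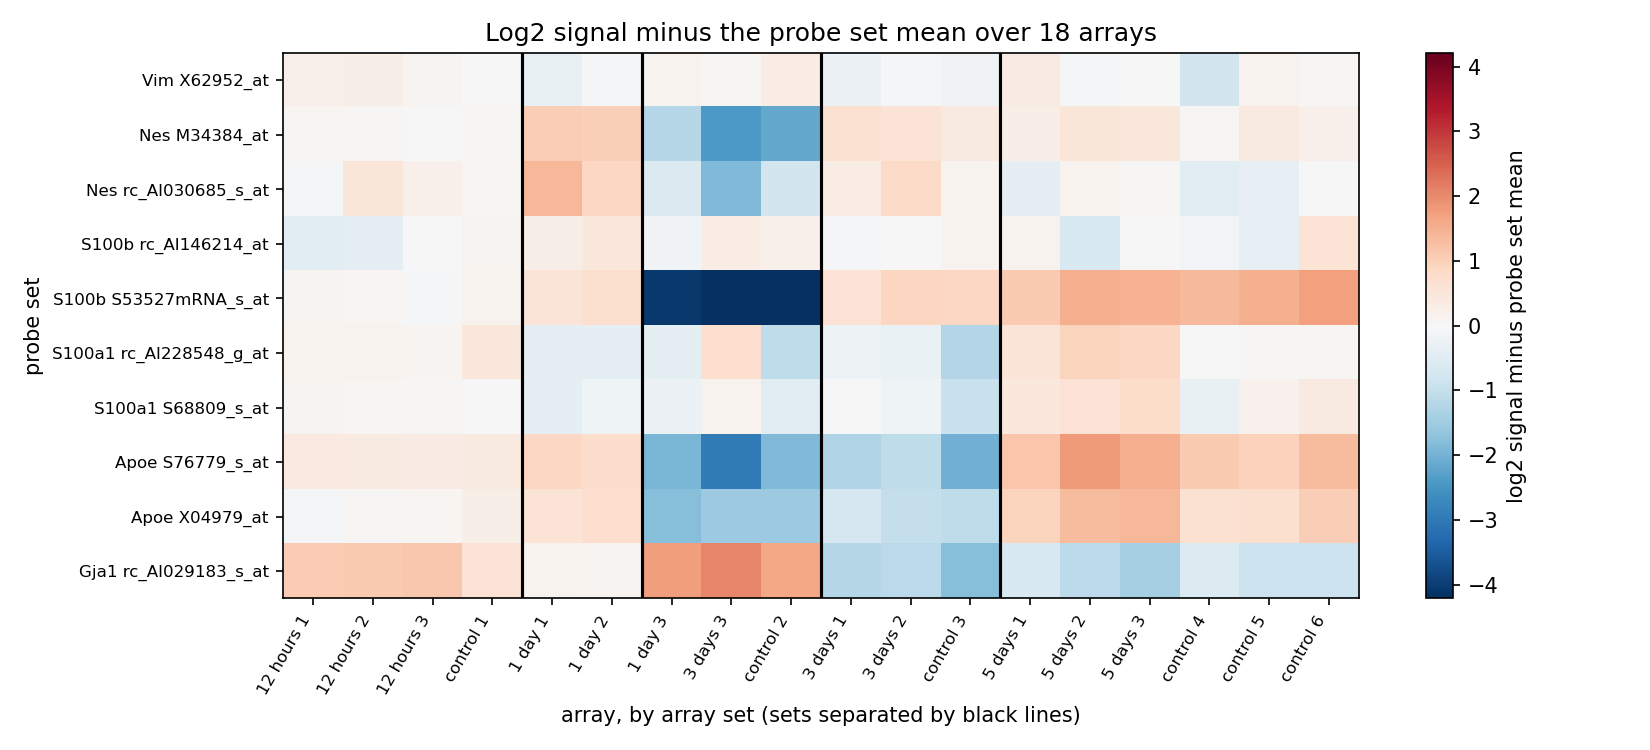
Log2 signal minus the mean of each probe set over 18 arrays, for the 10 probe sets (rows) and the arrays in order of their 5 sets (columns, sets divided by black lines), red above and blue below the mean. S100b S53527mRNA_s_at, both Nes and both Apoe probe sets are blue, and Gja1 is red, on all of 1 day 3, 3 days 3 and control 2, and the 5 sets took 99.5% of the sum of squares for that S100b probe set and 96.1% for Gja1.

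Over the 10 probe sets, 0 passed the limma threshold in any of the 9 comparisons or in the moderated F-test across the 5 groups. Of all 1027 tested probe sets, 1.66% passed at 12 hours against control, 0.292% at 1 day, 0% at 3 days and 0% at 5 days, and 0% for the mean of the 4 times. Between times, 0% passed for 1 day against 12 hours, 0.0974% for 3 days against 1 day, 0.292% for 5 days against 3 days and 16.5% for 5 days against 12 hours, and the F-test called 1.66%. At an unadjusted p under 0.05 against control, 0 of the 10 passed at 12 hours and 1 day, 1 at 3 days and 2 at 5 days, where 301, 120, 47 and 94 of all 1027 did. At that level 3 of the 10 and 118 of all passed at 5 days against 3 days, 1 and 328 at 5 days against 12 hours, and 3 and 258 in the F-test. The median log2 fold change of the 10 was 0.27 at 12 hours, -0.04 at 1 day, -0.03 at 3 days and 0.70 at 5 days against control, where the medians of all tested probe sets were -0.18, -0.05, 0.02 and -0.14. At 5 days against 12 hours 7 of the 10 did not overlap between the groups, as did 53.7% of all tested probe sets.

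Leaving out 1 day array 3, 3 days array 3 and control 2 left 15 arrays and gave more calls among the members and among all probe sets. At 12 hours against control 2 of 10 members passed (Gja1 higher and S100b S53527mRNA_s_at lower), beside 20.1% of all tested. At 1 day against control both Nes probe sets passed, beside 4.97%, and at 1 day against 12 hours 1 passed, beside 7.69%. At 5 days against 12 hours 3 passed (S100b S53527mRNA_s_at and Apoe X04979_at higher, Gja1 lower), beside 26.9%, and the F-test called 4 (both Nes probe sets, Apoe X04979_at and Gja1), beside 23.5%. With only controls 3 to 6, 1 passed at 12 hours, beside 31.3%. A fit of only the 2 groups compared called 6 of 10 at 5 days against 12 hours (both Apoe, both S100a1 and S100b S53527mRNA_s_at higher, Gja1 lower), beside 38.2%, and both Apoe probe sets at 5 days against 3 days, beside 1.75%.

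**Figure D3:**
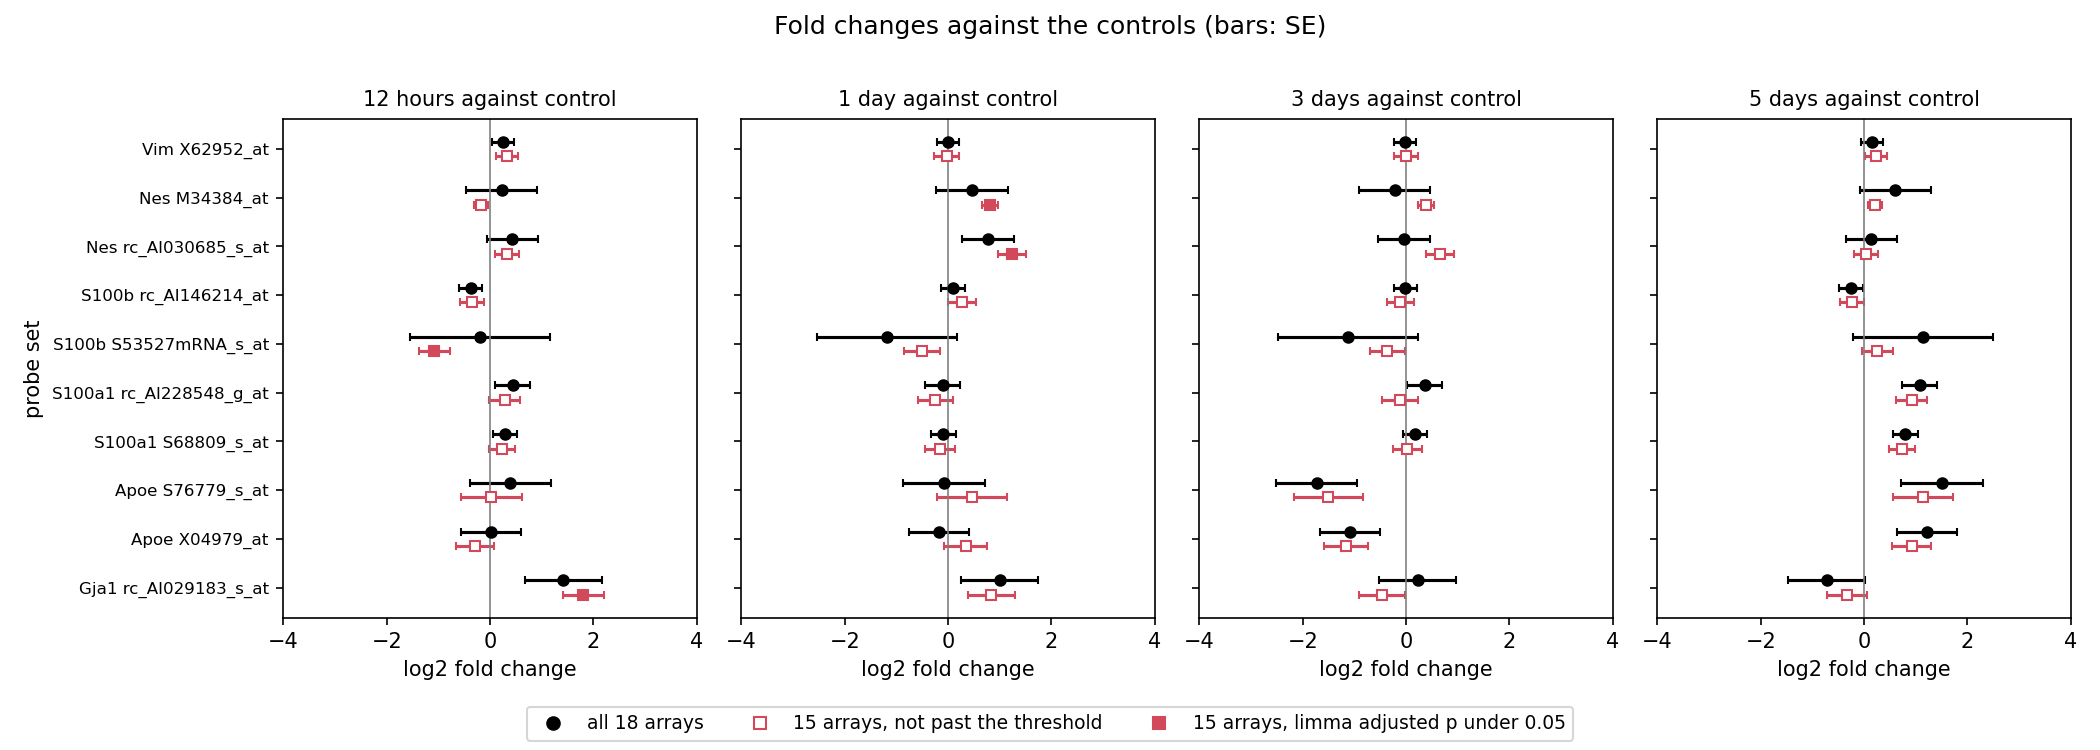
Log2 fold change against the controls with its SE at each time for the 10 probe sets, from all 18 arrays (black circles) and from 15 arrays without 1 day 3, 3 days 3 and control 2 (red squares, filled where the limma adjusted p was under 0.05). The filled squares are Gja1 (1.80) and S100b S53527mRNA_s_at (-1.08) at 12 hours and the 2 Nes probe sets (0.81 and 1.24) at 1 day.

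Where a gene had 2 probe sets, they moved together for 3 of the 4 genes. Over the 18 arrays the Pearson correlation of their log2 signals was 0.97 for Apoe, 0.90 for S100a1, 0.83 for Nes and -0.15 for S100b, as descriptions of arrays that share their sets. Groups took 46.5% and 44.7% of the sum of squares for the 2 Apoe probe sets, S76779_s_at first, and the 5 array sets took 95.1% and 96.1%. For Nes the groups took 9.33% on M34384_at and 17.8% on rc_AI030685_s_at, and the array sets took 93.7% and 78.5%. Vim differed from both, with 16.0% for the groups and 25.9% for the sets.

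**Figure D4:**
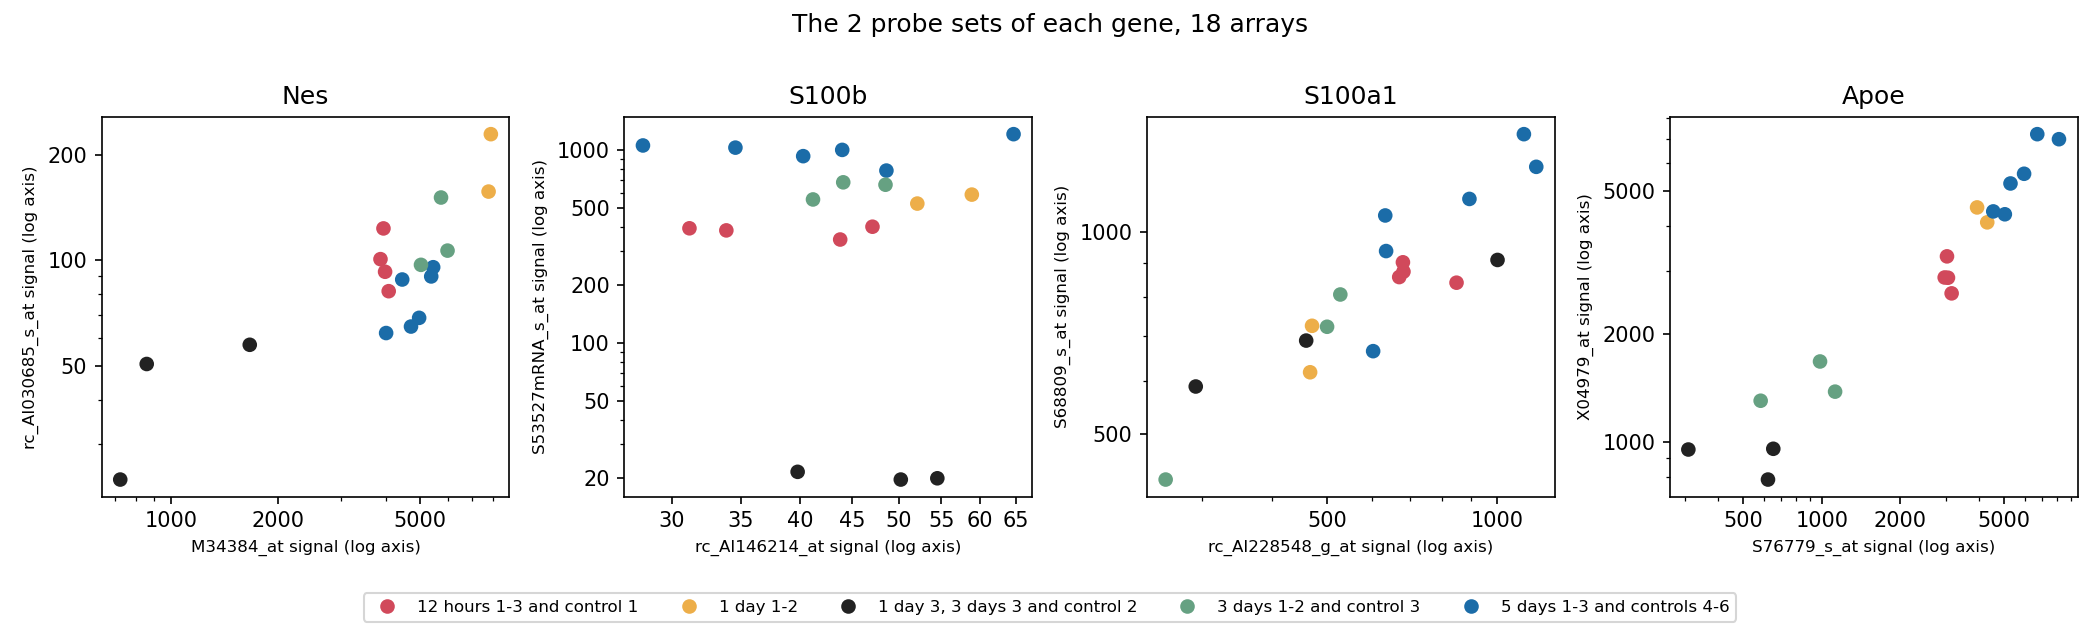
Signals of the 2 probe sets of Nes, S100b, S100a1 and Apoe against each other on log axes, 1 point per array, coloured by array set. The points rise together for Nes, S100a1 and Apoe, while for S100b the 3 black points lie near 20 on S53527mRNA_s_at and at 39.8 to 54.5 on rc_AI146214_at, inside the range of the other arrays.

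The other measured genes of the same families were few, and the lists they come from were made with earlier results of these data known. Of 13 intermediate filament genes and linkers 6 were measured: Vim, Nes, the neurofilament subunits Nefl, Nefm and Nefh, and Plec, which encodes the cytolinker plectin. At 5 days against 12 hours 1 of the 6 passed, beside 16.5% of all tested, with each gene read from the probe set whose log2 signal was highest on average: Nefl had 107.4, 193.0 and 234.2 at 5 days, lowest to highest, against 26.7, 36.5 and 77.9 at 12 hours, a log2 fold change of 2.0 ± 0.58 (limma adjusted p = 0.0416). Its second probe set had -0.73 ± 0.79 (SE) and did not pass, and the Nefl call was lost, with adjusted p-values of up to 0.128, when any single 12 hours or 5 days array was left out. Nefh, on rc_AA818677_at, had -2.97 ± 0.83 (limma adjusted p = 0.0394), and -0.36 ± 0.69 on its other probe set. On the probe sets so chosen no gene of the lists passed against control at 1 day, 3 days or 5 days. The S100 list held S100b and S100a1 as its only measured genes of 11, and the gap junction list held only Gja1 of 12.

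Of 19 genes of apolipoproteins, lipoprotein receptors and amyloid binding, 3 were measured: Apoe, the HDL receptor Scarb1 and Nr1h2, which encodes the sterol-sensing nuclear receptor LXR-beta that activates Apoe. None passed in any comparison on the probe set chosen in that way. At 5 days against 12 hours Scarb1 had 1.02 ± 0.35 with a limma adjusted p of 0.0546, beside 1.21 ± 0.67 for Apoe X04979_at and 0.10 ± 0.18 for Nr1h2 (log2 fold changes, SE). Another Scarb1 probe set, rc_AA874843_s_at, had 1.27 ± 0.40 and an adjusted p of 0.0459.

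Among 10 measured astrocyte markers of 24, which include S100b, Apoe and Gja1, 2 rose at 5 days against 12 hours, beside 16.5% of all tested probe sets that passed: Atp1b2, the beta subunit of the glial sodium pump, by 2.19 ± 0.38 (limma adjusted p = 0.00775), and Bcan, the matrix proteoglycan brevican, by 3.72 ± 0.92 (adjusted p = 0.0269). The median of the 10 was 1.27, against 0.01 over all tested probe sets. Against control at 5 days the median was 1.18, against -0.14, and 0 passed. All 6 controls entered this median, and only controls 4 to 6 share an array set with the 5 days arrays. Within that set no median was taken. All 10 were above the floor of 11.3 on every array. The glutamate transporter Slc1a3, on S59158_at, had 259.8 to 301.9 on the 3 arrays of the mixed set, 533.3 to 654.8 on the 12 hours arrays with control 1, and 1556.2 to 4874.2 on the other 11. Its log2 fold change at 5 days against 12 hours was 2.88 ± 1.10 on that probe set (limma adjusted p = 0.0822), and of its 3 other probe sets S75687_s_at and X63744_g_at passed, with 3.52 ± 1.13 and 3.28 ± 1.00 (adjusted p = 0.0460 and 0.0446). Glutamine synthetase, Glul, on rc_AI232783_s_at, had 4981.2 to 6263.2 on the 3 arrays of the mixed set and 11456.1 to 12630.1 on the 12 hours arrays with control 1. Of its 4 probe sets 1 passed at 12 hours against control, beside 1.66% of all tested: rc_AI012265_i_at, higher by 0.92 ± 0.21 (limma adjusted p = 0.0439). With the 5 array sets as a block the 12 hours arrays are set against control 1 alone, so that fit cannot decide about this call.

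Of 11 measured reactive astrocyte genes of 22, 1 fell at 5 days against 12 hours, where 16.5% of all tested passed: Cd44, a hyaluronan receptor, had 3.9, 11.8 and 18.9 at 5 days, lowest to highest, against 40.3, 50.3 and 75.5 at 12 hours, a log2 fold change of -1.97 ± 0.47 (limma adjusted p = 0.0259). Some of these signals lie at or near the floor, which understates the fold. Of 5 measured progenitor and immature glial markers of 15, which include Nes and Vim, 1 rose in that comparison, beside the same 16.5%: the cell adhesion molecule Ncam1, by 1.89 ± 0.54 (limma adjusted p = 0.0409). The Bcan, Cd44 and Ncam1 calls were also lost without any single 12 hours or 5 days array, and the Atp1b2 call without 12 hours array 2, where its adjusted p lay just above the threshold. With the 5 array sets as a block, 5 days against 12 hours rests on control 1 as the only control in the 12 hours set. Ncam1 then had -0.12, Bcan 0.63, Atp1b2 1.10, Cd44 -1.28 and Nefl 1.31 on the log2 scale, which cannot decide about these calls.

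Markers of other cell types were compared between the mixed set and the other arrays as ranges, with no test. Pdgfrb, a receptor of mural cells and fibroblasts, was the only measured gene of that list of 14. It had 538.9 to 590.3 on the mixed set and 225.7 to 484.5 elsewhere, without overlap. The array sets came from clustering these same arrays. How many of all tested probe sets separate the mixed set in this way was not counted. Itgam, the only measured microglia and macrophage gene of 13, had 57.9 to 77.0 there and 22.3 to 65.8 elsewhere, and these ranges overlapped. The summed signal of the 13 measured neuron markers of 20 was 3877.2 to 5277.4 on the mixed set, 3510.8 to 3933.4 on the 12 hours arrays with control 1 and 4958.3 to 6481.3 on the other 11, with at most 1 gene at the floor on any array. Much of this sum is 1 gene: at 12 hours Eno2 alone had 2283.3 to 2487.6, where the sum was 3510.8 to 3743.5. Of the 12 neuron markers tested, 1 passed at 12 hours against control, beside 1.66% of all tested. This was Syn1, a synaptic vesicle protein, lower by the limma test (-0.71 ± 0.17, adjusted p = 0.0475). A block of the 5 array sets leaves control 1 alone for the 12 hours arrays, so that fit cannot decide about the Syn1 call. At 5 days against 12 hours 3 of the 12 passed, beside 16.5% of all tested, all higher: Map2 (3.39 ± 1.11), Nefl and Syn1 (0.66 ± 0.19). The summed signal of the 6 measured oligodendrocyte markers of 12 was 1670.8 to 1977.0 on the mixed set, with 1 gene at the floor, and 1104.9 to 1926.5 elsewhere, with 0 or 1, again with overlap. Here Pdgfra alone had 895.4 to 951.1 at 12 hours, where the sum was 1628.0 to 1821.6. By group, Pdgfrb had 261.0 to 294.4, 225.7 to 544.2, 383.4 to 538.9 and 245.2 to 456.6 at 12 hours, 1 day, 3 days and 5 days, against 264.1 to 590.3 in controls. The part of other cells in the results above was not tested.

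The genes whose pattern over the 18 arrays was most like that of each member were found among 924 or 925 probe sets of other genes, by the root mean square difference of log2 signals after each mean was subtracted. For Nes M34384_at these were the chemokine Ccl2 (0.38), the secreted neuropeptide precursor Vgf (0.40) and the growth factor Pdgfb (0.46), where nestin itself had an SD of 0.96. For Apoe X04979_at they were complement C3 (0.44), the metallothionein Mt1 (0.49) and the monoamine oxidase Maob (0.60), with an SD of 1.03. For Gja1 they were the leptin receptor Lepr (0.48), the growth hormone receptor Ghr (0.49) and the protease Ctsk (0.50), with an SD of 1.22. For S100b S53527mRNA_s_at they were the microtubule protein Map1b (0.82), the cytokine Il6 (0.97) and the metallothionein Mt3 (1.01), with an SD of 1.99. S100a1 S68809_s_at, with an SD of 0.41, lay nearest to Stat3 (0.33), Dlg3 (0.36) and Fgfr1 (0.38), and Vim, with an SD of 0.26, to the chaperone Hsp90ab1 (0.21), Gipc1 (0.22) and Stx8 (0.23). For S100a1 and Vim these distances were close to their own SD, so the likeness is slight. For the Nes, Apoe, Gja1 and S100b probe sets named here, the 5 array sets took 93.7%, 96.1%, 96.1% and 99.5% of the sum of squares. Their likeness to other genes is thus mostly a likeness of differences between array sets, and shared regulation was not tested.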

How the data were processed

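The authors deposited a linear intensity, called signal here, for each probe set on each array. The software, its scaling target and the genome build were not given in the sources used here. Signals were not scaled again. The 59 control probe sets were left out, signals under the 10th percentile were raised to it (11.3) before taking log2. Probe sets above the 30th percentile (44.9) on at least 3 arrays were tested (1027 of 1263). A single limma model (version 3.58.1, R 4.3.3) held all 18 arrays and 5 groups (13 residual degrees of freedom, two-sided, Benjamini-Hochberg within each comparison, threshold 0.05). The procedure was tested on simulated data that held no array sets, which does not show that its p-values hold for these arrays. The number of arrays limits the precision. Average linkage on 1 minus Pearson correlation gave the 5 array sets. Other scalings, floors, filters, blocks, subsets and single arrays left out were tried. Leaving out the mixed set, the fits within array sets and the replicate block in 1 day and 3 days alone were chosen after seeing the data.

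The 6 genes and all lists were chosen with earlier results of these data known. From each list, members past the threshold were named, up to 4; where none passed, those with the smallest p were given as values. Gfap, Slc1a3 and Glul were to be named where measured, and the 3 most alike genes for each member. Neuron, Pdgfrb, Itgam and second probe set values, and those outside this rule, were chosen after their values were seen. Symbols came from the platform annotation: 1137 probe sets had 1 symbol, 8 several and 118 none. Same-numbered arrays of 1 day and 3 days deviated together (correlations 0.39, 0.43 and 0.68), array 3 of both being in the mixed set, so 3 days against 1 day was also fitted with the number as a block. No other 2 groups met this in every pair. Deviations were taken from means of 3 arrays, so a shared set of array 3 alone can make arrays 1 and 2 deviate together. Differently numbered arrays were not compared, and the correlations do not show pairing. The labels name nothing shared by a number.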

Additional observations from a re-analysis of the deposited data

Results flagged for a closer look

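Control 2 stood apart from the other 5 controls on 2 of the 10 probe sets. For Nes M34384_at its gap to the next control was 0.869 of the range of the 6 controls on the log2 scale, with a signal of 856.3, against 3988.1 to 5028.0 on the other controls. For S100b S53527mRNA_s_at the gap was 0.732 of the range, with 19.7 against 401.2 to 1209.0. Both gaps exceed the critical value of Dixon's ratio, which chance passes in about 1 in 20 groups; the controls of all 10 probe sets were checked. Control 2 is also 1 of the 3 arrays of the mixed set, and one of the 2 controls whose source field reads cerebral cortex.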

How the results depend on the processing

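Of 3300 values of the 10 probe sets under 37 alternatives, 3137 were counted as unchanged, 131 moved by more than 1 SE without passing, and 32 newly passed. Of all values, 0 passed with the opposite sign, and 200 uncalled values changed sign. Unchanged fold changes stayed uncalled and within 1 SE of the reported value. F-test values have no SE, so each that stayed uncalled was counted as unchanged, however far it moved. For S100b S53527mRNA_s_at the F statistic ran from 0.38 to 6.59 over the alternatives, against 0.75 in the main fit. Passing counts among the 10, reported as 0, differed as follows, with the count over all tested probe sets after each. With the array sets as a block, dividing the arrays into 2 gave 1 at 1 day against 12 hours (S100b S53527mRNA_s_at lower, 15 in all), and into 5 gave 1 at 3 days against control (S100a1 rc_AI228548_g_at higher, 6 in all) and 1 in the F-test (3 in all). Within the 11 arrays of the larger division, 3 passed at 1 day against control (both Nes and Gja1 higher, 123 in all). Without the mixed set the counts were 2, 2, 1, 3 and 4 at 12 hours and 1 day against control, 1 day against 12 hours, 5 days against 12 hours and in the F-test (206, 51, 79, 276 and 241 in all). With controls 3 to 6 there was 1 at 12 hours against control and 1 at 5 days against 12 hours (321 and 246), and with only the groups compared 6 at 5 days against 12 hours and 2 at 5 days against 3 days (392 and 18). Leaving out 1 array at a time gave 0 to 1 at 5 days against 12 hours, the 1 being Gja1 without 3 days array 3, and 0 elsewhere. With a replicate block over all groups 2 passed at 5 days against control (Apoe S76779_s_at, 2.66, and S100a1 S68809_s_at, 1.07) and 1 at 5 days against 3 days (61 and 24 in all). Numbers 4 to 6 occur only among the controls, so this block set each time against controls 1 to 3 alone. None of these shares an array set with the 5 days arrays. Same-numbered arrays of 1 day and 3 days deviated together, which does not show that they were paired. A replicate block in those 2 groups alone gave 0 at 3 days against 1 day (0 in all) and changed no call of the 10. Over all tested probe sets and all alternatives, passing counts ran from 0 to 321 at 12 hours, 0 to 123 at 1 day, 0 to 6 at 3 days and 0 to 61 at 5 days against control, 0 to 54 for the mean of the times, 0 to 79 at 1 day against 12 hours, 0 to 38 at 3 days against 1 day, 0 to 24 at 5 days against 3 days, 0 to 392 at 5 days against 12 hours and 1 to 241 in the F-test. Of the list genes at 5 days against 12 hours, Atp1b2 passed under 29 of 32 alternatives, Bcan under 24 of 32 and Ncam1 under 23 of 32. Cd44 passed under 23 of 31, Nefl under 20 of 32 and Scarb1 under 10 of 32. With the 5 array sets as a block, where control 1 is the only control in the 12 hours set, Ncam1 had -0.12. The cause was not tested. S100b rc_AI146214_at was near the filter, where signal limits what can be seen.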
